A study of Rattus norvegicus with 18 samples.

Results

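Mt3 encodes metallothionein 3, and its mRNA expression was followed through the healing of a broken femur in young, adult, and older rats. One probe set of the 8799 on the array was annotated to Mt3 (rc_AA924772_at), so that Mt3 stood for 1 of 4737 genes with a symbol of their own, and it was measured on all 18 arrays. The gene was chosen on its measured signals: earlier results from these same arrays had placed it among the largest increases after fracture. Its differences between fracture and no fracture are therefore given as a description, without a test, and only its age comparisons were tested.

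Intact female Sprague-Dawley rats were 6 (young), 26 (adult), or 52 weeks old (older) at a closed mid-shaft fracture of the femur, which was held by a steel rod in the marrow canal. The middle part of the femur, with callus, cortical bone, and marrow, was taken without fracture, from rats that the study describes as sham controls, and after fracture at 3 days and at 1, 2, 4, and 6 weeks. Each array held the pooled RNA of 2 rats, and there was 1 array for each age and time. The 3 ages are thus the replicates of a time, and the 5 times after fracture are the replicates of an age, so that no spread between rats of the same age and time was measured. The signals are arbitrary units scaled by the authors to an average of 500 on each array. Array medians lay between 137.2 and 182.6. As the tissue is a mixture, fewer cells of a type and less RNA per cell cannot be told apart.

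Metallothioneins are small proteins rich in cysteine that bind zinc and copper. The forms 1 and 2 are made in most tissues and are switched on by metals, glucocorticoids, and inflammation. Metallothionein 3, also called growth inhibitory factor, is best known from neurons and astrocytes of the brain, where it holds zinc and restrains the outgrowth of neurites. In the rat genome Mt3 lies on chromosome 19 between Mt2A and Mt4, with Mt1 beyond Mt2A (RefSeq, GRCr8).

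The 250 bases before the annotated start of Mt3 (chr19:10856081-10856330, minus strand) are shown because metallothionein genes are known for metal response elements before their start, and those before its neighbor Mt2A (chr19:10838709-10838958, minus strand) are shown beside them. Both are from RefSeq, GRCr8, and run 5′ to 3′. Capitals mark the core of the metal response element, searched as TGCACNC and TGCGCNC on both strands. The patterns differ at 1 base, so no site is counted under both on the same strand.
Mt3: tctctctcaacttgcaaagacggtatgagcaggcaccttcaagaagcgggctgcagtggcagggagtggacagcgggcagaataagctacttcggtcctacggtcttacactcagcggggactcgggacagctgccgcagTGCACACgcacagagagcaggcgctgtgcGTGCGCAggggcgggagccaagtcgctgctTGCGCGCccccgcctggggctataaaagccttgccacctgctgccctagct
Mt2A: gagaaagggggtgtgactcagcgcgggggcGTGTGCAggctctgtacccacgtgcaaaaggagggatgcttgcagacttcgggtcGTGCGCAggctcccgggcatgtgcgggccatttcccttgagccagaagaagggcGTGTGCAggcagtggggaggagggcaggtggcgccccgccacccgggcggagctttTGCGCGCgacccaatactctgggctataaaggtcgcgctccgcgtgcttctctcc
The window of Mt3 held 3 matches, which began 110, 81, and 51 bases before the start. That of Mt2A held 4, that of Mt1 held 6, and that of Mt4 held 1. Among 33469 rat promoter windows of the same length, 20.6% held at least 1 match and 1.17% held at least 3. Windows before 2 genes with a time course like that of Mt3, Acp5 and Ctsk, held 0 matches. A match describes the letters and says nothing of whether a factor was bound.

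Mt3 mRNA was low without fracture and, in adult and older rats, at 3 days. At every age it was higher from 1 week on than at those times, and it was still high at 6 weeks. In young rats the signal was 378.5 without fracture, 927.1 at 3 days, 2562.6 at 1 week, 3169.8 at 2 weeks, 2292.5 at 4 weeks, and 1259.5 at 6 weeks. In adult rats it was 165.5 without fracture, 78.5 at 3 days, 2670.2 at 1 week, 2930.6 at 2 weeks, 2282.6 at 4 weeks, and 3423.6 at 6 weeks. In older rats it was 55.8 without fracture, 43.1 at 3 days, 948.9 at 1 week, 2417.9 at 2 weeks, 2472.1 at 4 weeks, and 3098.0 at 6 weeks. Each of the 12 arrays from 1 to 6 weeks was higher than each of the 6 arrays of no fracture and 3 days. The margin was narrow in 1 place, where older rats at 1 week (948.9) were close to young rats at 3 days (927.1).

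**Figure D1:**
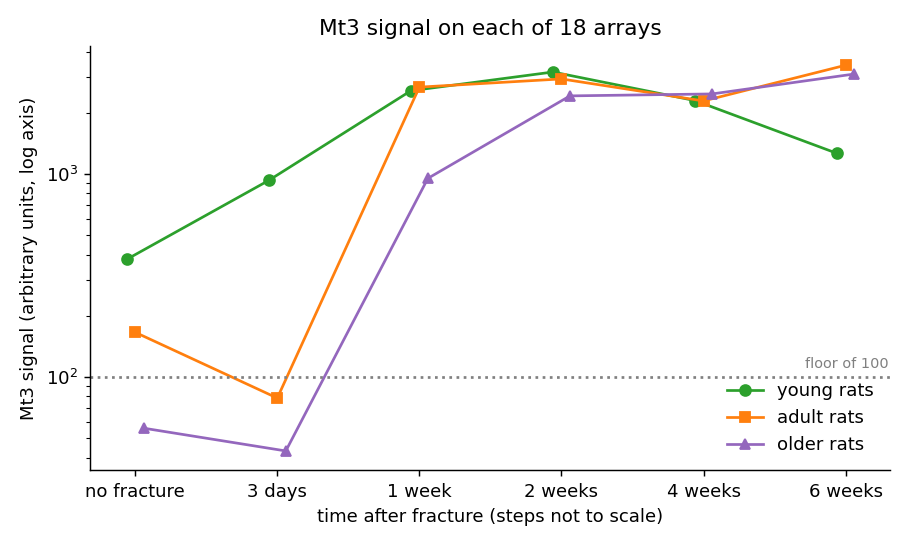
Mt3 signal (arbitrary units, log axis) on each of 18 arrays by time after fracture, with a line for each age and 1 array per point. All points from 1 to 6 weeks lie between 948.9 and 3423.6, and all points of no fracture and 3 days lie between 43.1 and 927.1.

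Mt3 changed its place among all probe sets of an array as well. Without fracture it stood at percentile 70.7 in young, 54.3 in adult, and 28.0 in older rats. At 2 weeks it stood at percentile 95.0 in young, 94.3 in adult, and 93.5 in older rats. The increase in older rats was thus one from below the array's median to near the top of its range.

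By time, the mean signal was 199.9 ± 164.1 without fracture, 349.6 ± 500.5 at 3 days, 2060.6 ± 964.2 at 1 week, 2839.4 ± 384.2 at 2 weeks, 2349.1 ± 106.7 at 4 weeks, and 2593.7 ± 1167 at 6 weeks (SD, n = 3 arrays each). The spread between ages was widest relative to the mean at 3 days and narrowest at 4 weeks. On the log2 scale, with signals below 100 set to 100, the times ranked from low to high as no fracture, 3 days, 1 week, 4 weeks, 6 weeks, and 2 weeks. Only 3 days and 1 week were neighbors in this order whose arrays did not overlap.

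Against no fracture, the mean log2 difference of Mt3 was 0.19 ± 0.64 (SE) at 3 days, 3.34 ± 0.64 at 1 week, 3.94 ± 0.64 at 2 weeks, 3.67 ± 0.64 at 4 weeks, and 3.69 ± 0.64 at 6 weeks. These correspond to 10.1-fold at 1 week, 15.3-fold at 2 weeks, 12.7-fold at 4 weeks, and 12.9-fold at 6 weeks. The folds depend on the floor of 100, since the array of older rats without fracture and those of adult and older rats at 3 days lay below it. Among 4669 probe sets bright enough to be tested (a signal of 200 or more on 3 arrays or more), ranked from the largest increase, Mt3 was number 2000 at 3 days, 15 at 1 week, 4 at 2 weeks, 3 at 4 weeks, and 2 at 6 weeks. For scale, 24.5% of these probe sets rose and 19.7% fell at 3 days by limma (adjusted p below 0.05), 14.3% rose and 10.5% fell at 1 week, 12.8% rose and 8.27% fell at 2 weeks, 5.05% rose and 1.43% fell at 4 weeks, and 3.19% rose and 1.2% fell at 6 weeks. Nothing is read from these shares for Mt3, because this contrast chose the gene.

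The single ages differed in the shape of the rise. Mt3 peaked at 2 weeks in young rats, and at 6 weeks stood at 39.7% of that peak. Adult and older rats had their highest signal at 6 weeks. At 1 week adult rats had reached 78.0% and older rats 30.6% of their own highest signal, against 80.8% in young rats. At 3 days adult rats were at 2.3%, older rats at 1.4%, and young rats at 29.2%. Within an age, the log2 difference between 6 weeks and no fracture was 4.37 in adult and 1.73 in young rats, the value in young rats resting on an array that stands apart in a measure of RNA quality. In older rats, whose signal without fracture was below the floor of 100, it was 4.95 with that floor.

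No age comparison of Mt3 passed the test. Over the 5 times after fracture, the median signal was 2417.9 in older rats, 2670.2 in adult rats, and 2292.5 in young rats. The log2 difference was -0.73 ± 0.50 (SE) between older and young rats (adjusted p = 0.428), -0.37 ± 0.50 between adult and young rats (adjusted p = 0.804), and -0.36 ± 0.50 between older and adult rats (adjusted p = 0.692). Of all probe sets tested, 0.15% differed between older and young rats and 3.73% between older and adult rats. Between adult and young rats 0% differed by limma, with 618 probe sets at p below 0.05 before adjustment and 0 by the ordinary two-sample test after adjustment. The array of young rats at 3 days weighed heavily here: without it the difference between older and young rats was -0.06, and that between adult and young rats was 0.30.

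Older and young rats stood in opposite order early and late. Mt3 was lower in older than in young rats at 1 week (948.9 against 2562.6) and at 2 weeks (2417.9 against 3169.8), about equal at 4 weeks (2472.1 against 2292.5), and higher at 6 weeks (3098.0 against 1259.5). Over 1 and 2 weeks together the log2 difference, older minus young, was -0.91 ± 0.37 (adjusted p = 0.326), where 0.514% of probe sets differed. This value was -0.35 without the array of older rats at 1 week and -1.48 without that at 2 weeks. Over 4 and 6 weeks it was 0.70 ± 0.37 (adjusted p = 0.300), where 2.81% of probe sets differed. The change between these periods, a comparison added after the values were seen, was 1.62 ± 0.53 (adjusted p = 0.467). For this change 0% of probe sets passed by limma, and 337 had p below 0.05 before adjustment. Before fracture Mt3 was lower in older rats (55.8) than in young rats (378.5), and the age difference after fracture departed from that without fracture by 1.19 ± 1.23 (adjusted p = 0.676), where 2.55% of probe sets passed. As the array of older rats without fracture was below the floor, this departure was 0.39 with a floor of 200 and 1.79 with a floor of 20.

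**Figure D2:**
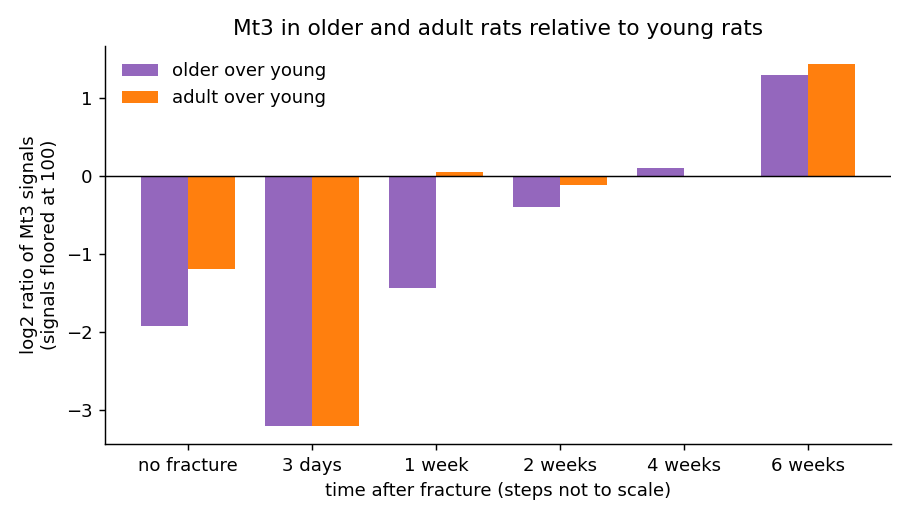
Log2 ratio of the Mt3 signal in older and in adult rats over young rats at each time (signals floored at 100), 1 array per age and time and so without error bars. The ratio of older over young was -3.21 at 3 days and 1.30 at 6 weeks, and that of adult over young was -3.21 at 3 days and 1.44 at 6 weeks. At 3 days older and adult rats were both at the floor.

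The late excess of older over young rats rested on the array of young rats at 6 weeks. On that array the signal of the 5′ probe set of Gapdh was 0.257 of that of its 3′ probe set, against 0.650 to 0.913 on the other 17 arrays, a ratio that is lower where RNA or labeling is less complete. The same ratio of actin did not set the array apart, at 0.446 against 0.372 to 0.842 on the others. Without it, the difference between older and young rats at 4 and 6 weeks was 0.04 on the log2 scale, and the increase of Mt3 at 6 weeks over no fracture was 4.52. The part of RNA quality in the low Mt3 signal of that array was not tested.

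The other metallothioneins on the array followed another course. None of them had a probe set with a single symbol, so 3 probe sets are given by their identifiers, picked after the files were seen. Probe set rc_AI176456_at is annotated to Mt1m and Mt2A together, rc_AI102562_at to Mt1f, Ttr, and Mt1 together, and M11794cds#2_f_at has no symbol in the annotation used, although the study describes it as metallothionein 2 and 1. Closely similar genes can hybridize to the same probes, so these signals cannot be assigned to 1 gene. Mt3 itself rests on 1 probe set, and whether that probe set hybridizes to Mt3 alone was not checked.

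Probe set rc_AI176456_at had the largest increase of all 4669 probe sets at 3 days, the time at which Mt3 was low in adult and older rats. Its signal in young rats was 352.1 without fracture, 8585.9 at 3 days, 1096.9 at 1 week, 781.1 at 2 weeks, 413.6 at 4 weeks, and 959.0 at 6 weeks. In adult rats it was 401.0 without fracture, 10947.6 at 3 days, 4593.3 at 1 week, 1476.5 at 2 weeks, 446.7 at 4 weeks, and 752.3 at 6 weeks. In older rats it was 455.7 without fracture, 14210.7 at 3 days, 7919.7 at 1 week, 1662.4 at 2 weeks, 1350.2 at 4 weeks, and 1045.9 at 6 weeks. It was highest at 3 days at every age and lay between 413.6 and 1350.2 at 4 weeks. It rose 27.5-fold at 3 days (log2 4.78 ± 0.41, adjusted p = 4.73e-06), 8.53-fold at 1 week (log2 3.09 ± 0.41, adjusted p = 0.000184), and 3.10-fold at 2 weeks (log2 1.63 ± 0.41, adjusted p = 0.00983), a call lost without the array of older rats without fracture (adjusted p = 0.0507). At 4 weeks the log2 difference was 0.65 (adjusted p = 0.418) and at 6 weeks 1.18 (adjusted p = 0.117).

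The remaining metallothionein probe sets also rose early, with smaller changes. At 3 days M11794cds#2_f_at rose 3.81-fold (log2 1.93 ± 0.26, adjusted p = 5.46e-05) and rc_AI102562_at rose 3.46-fold (log2 1.79 ± 0.30, adjusted p = 0.000272). At 1 week they rose 2.86-fold (log2 1.52 ± 0.26, adjusted p = 0.000597) and 2.30-fold (log2 1.20 ± 0.30, adjusted p = 0.00754). The call of rc_AI102562_at at 1 week was lost without the array of adult rats at that time (adjusted p = 0.06). Neither passed the test at 2, 4, or 6 weeks. Over the 18 arrays the log2 signals of these 3 probe sets correlated with each other at Pearson's r of 0.89 to 0.94, and with Mt3 at -0.25 to -0.21. The arrays share times, ages, and scaling, so these r are descriptions.

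**Figure D3:**
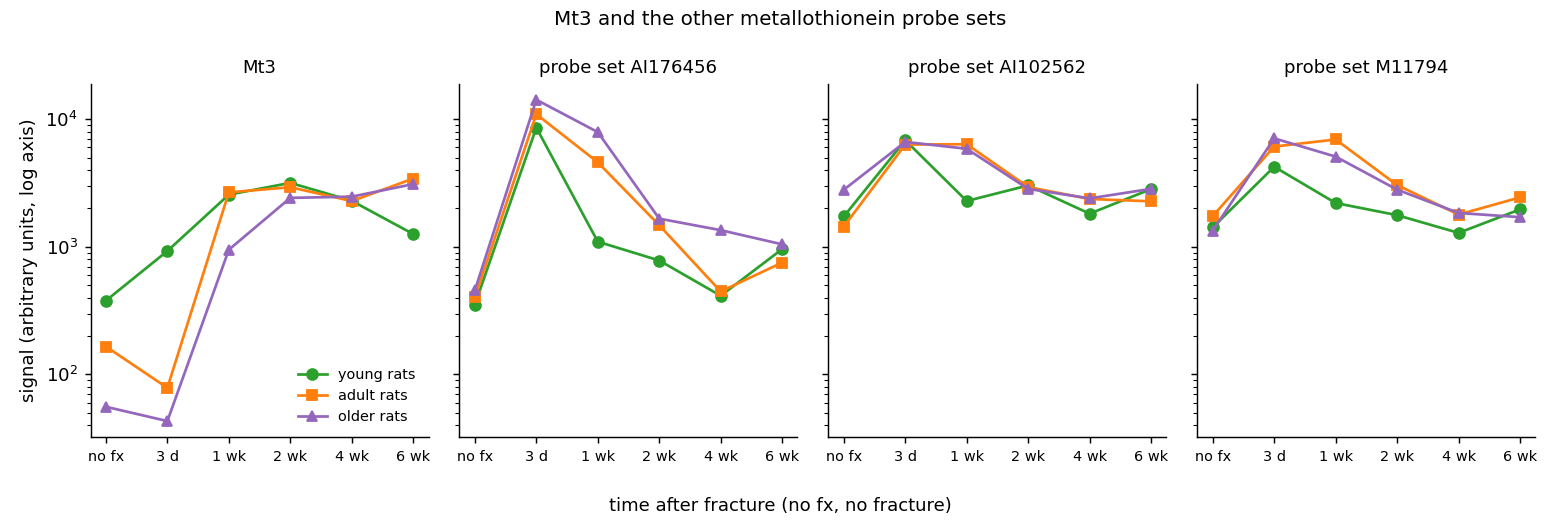
Signal (arbitrary units, log axis) of Mt3 and of 3 other metallothionein probe sets by time after fracture, with a line for each age and 1 array per point. At 3 days probe set AI176456 lies between 8585.9 and 14210.7, and Mt3 lies between 43.1 and 927.1.

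The signal of rc_AI176456_at was higher in older than in young rats at all 6 times, most so at 1 week (7919.7 against 1096.9). The log2 difference over 1 and 2 weeks, older minus young, was 1.97 ± 0.43 (adjusted p = 0.0813) for rc_AI176456_at, 0.94 ± 0.26 (adjusted p = 0.159) for M11794cds#2_f_at, and 0.63 ± 0.35 (adjusted p = 0.482) for rc_AI102562_at. None of them passed the test.

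The genes whose time course was most like that of Mt3 included genes of osteoclasts, the cells that resorb bone. Likeness was measured as Pearson's r of log2 signals over the 18 arrays among 1753 genes with a mean signal of 500 or more at 1 time at least. The points share times, ages, and arrays, and r is given without a test. Acp5, the tartrate-resistant acid phosphatase of osteoclasts, came first at 0.97 (Spearman's rho 0.83), and Ctsk, the protease cathepsin K that cleaves bone collagen, came second at 0.91 (rho 0.83). Next were Cst3, the protease inhibitor cystatin C, at 0.88, Ckb, the brain form of creatine kinase, at 0.84, Kiaa0040 at 0.84, Sparcl1, a matrix glycoprotein, at 0.84, Arsb, a lysosomal sulfatase, at 0.83, the gelatinase Mmp9 at 0.83, Nbl1, a secreted inhibitor of bone morphogenetic proteins, at 0.83, and Gpx3, a secreted glutathione peroxidase, at 0.81. Each r is that of the gene's tested probe set with the highest mean signal. A second tested probe set had a lower r for Ckb (0.73), Kiaa0040 (0.59), and Gpx3 (0.695), and an r of 0.89 for Cst3. With the mean of each time taken out, the differences between ages are left. The r with Mt3 was then 0.90 for Acp5, 0.83 for Ctsk, 0.67 for Mmp9, 0.65 for Cst3, 0.64 for Ckb, and 0.28 to 0.50 for the others. Genes picked for likeness follow the times of Mt3 by choice. Acp5, Ctsk, Mmp9, and Gpx3 are also members of the gene lists, and their tests are those of list members and lend no support to the likeness.

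Acp5 was low without fracture and at 3 days in adult and older rats and higher at every age from 1 week on. Its signal in young rats was 1670.2 without fracture, 2343.4 at 3 days, 8413.5 at 1 week, 11166.7 at 2 weeks, 6702.7 at 4 weeks, and 4010.1 at 6 weeks. In adult rats it was 454.7 without fracture, 479.5 at 3 days, 4594.2 at 1 week, 9940.6 at 2 weeks, 9065.3 at 4 weeks, and 9044.6 at 6 weeks. In older rats it was 714.5 without fracture, 303.9 at 3 days, 1980.9 at 1 week, 11902.0 at 2 weeks, 11000.4 at 4 weeks, and 9250.8 at 6 weeks. As with Mt3, older rats were below young rats at 3 days and 1 week and above them at 6 weeks. At 2 weeks the order of these ages differed, since older rats were above young rats for Acp5 and below them for Mt3. The log2 difference against no fracture was -0.22 ± 0.61 (adjusted p = 0.786) at 3 days and 3.75 ± 0.61 (13.5-fold, adjusted p = 0.000745) at 2 weeks. Acp5 also rose at 1 week (5.21-fold, adjusted p = 0.00967), at 4 weeks (10.7-fold, adjusted p = 0.00431), and at 6 weeks (8.52-fold, adjusted p = 0.0132). The call at 1 week was lost without the array of adult rats without fracture (adjusted p = 0.0552), and that at 6 weeks without that array or the 6-week array of adult or of older rats (adjusted p up to 0.0986).

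Ctsk was already up at 3 days. It was at 7925.5 in young, 2339.2 in adult, and 1737.5 in older rats at 3 days, against 1829.2 in young, 311.2 in adult, and 564.5 in older rats without fracture. It rose 4.65-fold at 3 days (log2 2.22 ± 0.47, adjusted p = 0.00158), 12.4-fold at 1 week (adjusted p = 0.000176), 23.1-fold at 2 weeks (adjusted p = 6.42e-05), 19.0-fold at 4 weeks (adjusted p = 0.000309), and 17.1-fold at 6 weeks (adjusted p = 0.000498). At 6 weeks its signal was 13487.5 in older, 13552.2 in adult, and 8820.7 in young rats, so that young rats were lowest, as they were for Mt3 and Acp5. All of these values in young rats come from the array with the low Gapdh ratio.

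Mmp9 reached 8208.4 in young, 5205.5 in adult, and 8804.3 in older rats at 2 weeks, and 1167.8 in young, 3123.5 in adult, and 3861.2 in older rats at 6 weeks. It rose 7.64-fold at 2 weeks (log2 2.93 ± 0.85, adjusted p = 0.0219). Over 4 and 6 weeks Mmp9 was higher in older than in young rats by 1.92 ± 0.37 on the log2 scale (adjusted p = 0.0336), where the same difference of Mt3 was 0.70 ± 0.37 and that of Acp5 was 0.96 ± 0.41 (adjusted p = 0.208). The calls of Mmp9 were weak: that at 2 weeks was lost without any of 5 single arrays (adjusted p up to 0.0955) and that between ages without any of 6 (adjusted p up to 0.233).

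**Figure D4:**
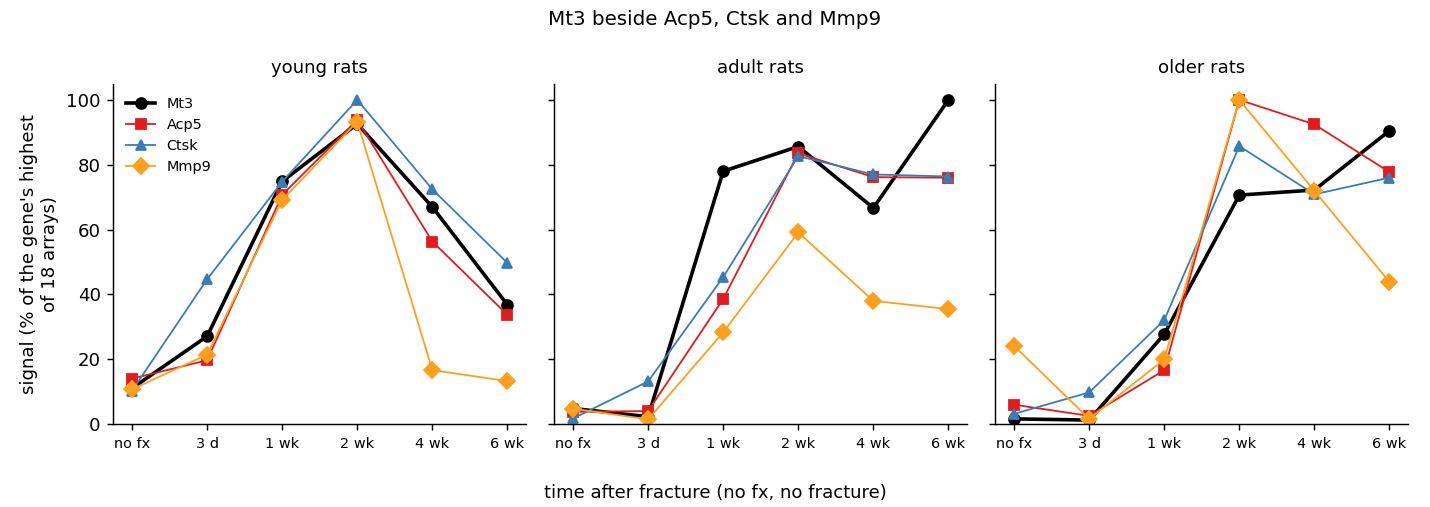
Signal of Mt3, Acp5, Ctsk, and Mmp9 as a percent of each gene's highest of the 18 arrays, by time after fracture, in 1 panel per age and with 1 array per point. At 6 weeks all of these genes stand lower in young rats, on the array with the low Gapdh ratio, than in adult and older rats.

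Not every osteoclast marker behaved in this way. Of all probe sets tested, 24.5% rose and 19.7% fell at 3 days, and 14.3% rose and 10.5% fell at 1 week. At 2 weeks 12.8% rose and 8.27% fell, and 5.05% rose at 4 weeks and 3.19% at 6 weeks. Of 12 markers 7 were on the array and 4 were bright enough to be tested: 1 rose and 1 fell at 3 days, 2 rose and 1 fell at 1 week, 3 rose and 1 fell at 2 weeks, and 2 rose and 0 fell at both 4 and 6 weeks. Their median log2 difference was -0.87 at 3 days and 3.34 at 2 weeks, against 0.01 and 0.00 over all probe sets tested. The one that fell was Car2, a carbonic anhydrase of osteoclasts and also of red blood cells, which fell 20.7-fold at 3 days (log2 -4.37 ± 0.43, adjusted p = 1.17e-05). Erythroid markers were low at the same time, with a summed signal of 8030.0 to 18380.5 at 3 days and 75688.2 to 109318.0 without fracture, and their part in the fall of Car2 was not tested. The calcitonin receptor Calcr, which marks mature osteoclasts, did not exceed 100.9 on any array, and the chloride channel Clcn7 did not exceed 164.9. The summed signal of the 7 markers was 31137.5 to 42314.9 at 2 weeks, against 5794.4 to 14204.7 without fracture. A score was made of the 4 tested markers, the mean of their log2 signals after each was centered on its own mean over the arrays. It correlated with Mt3 at r = 0.91 over the 18 arrays. Of these 4 markers, Acp5, Ctsk, and Mmp9 are among the genes most like Mt3 on the same arrays. This r therefore repeats that likeness and lends it no support.

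Other cell types were followed by the same kind of score. Its r with Mt3 over the 18 arrays was 0.70 for 9 markers of osteoblasts and bone matrix, 0.60 for 6 of Schwann cells and myelin, 0.59 for 5 of cartilage, 0.43 for 15 of skeletal muscle, 0.42 for 4 of neurons, 0.40 for 7 of adipocytes, 0.39 for 7 of astrocytes, 0.03 for 6 of erythroid cells, -0.25 for 5 of neutrophils, and -0.31 for 5 of macrophages. Most bone markers had risen by 3 days, when Mt3 was low in adult and older rats. Of 9 bone markers 6 rose and 1 fell at 3 days, and 7 rose at 6 weeks. Their median log2 difference was 1.14 at 3 days and 1.41 at 6 weeks. Of all probe sets tested, 24.5% rose and 19.7% fell at 3 days, and 3.19% rose at 6 weeks. Ibsp, bone sialoprotein, rose 10.8-fold at 3 days (log2 3.44 ± 0.38, adjusted p = 1.6e-05) and was still 5.66-fold up at 6 weeks (adjusted p = 0.00205). All 5 cartilage markers rose at 1 and 2 weeks, with a median log2 difference of 3.33 at 2 weeks. At 4 weeks 3 of 5 rose (median 2.06), and at 6 weeks 0 passed the test with a median still at 1.68. The share of all probe sets that rose was 14.3% at 1 week, 12.8% at 2 weeks, and 5.05% at 4 weeks. At 2 weeks, the time of the highest mean of Mt3, all 5 neutrophil and all 6 erythroid markers fell (median log2 difference -5.26 for neutrophils and -2.53 for erythroid cells). At that time 8.27% of all probe sets tested fell. The part of the mix of cells in the Mt3 signal was not tested.

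Because Mt3 is best known from nervous tissue, markers of nerve cells were set beside it. Of 16 neuron markers 12 were on the array and 4 were tested, and 0 of 4 rose or fell at any time by limma. Before adjustment 1 of them had p below 0.05 at 3 days, and 0 did at the other times. Their median log2 difference lay between -0.02 and 0.29 over the 5 times. Of all probe sets tested, 24.5% rose and 19.7% fell at 3 days, and fewer did at each later time. The tested markers were Syn1, a synaptic vesicle protein with a median signal of 341.2 and 17 of 18 arrays at 200 or more, Uchl1, Gap43, and Snap25, whose highest signals were 268.5, 217.5, and 266.8. Of the markers not tested, the neurofilament genes Nefl, Nefm, and Nefh did not exceed 130.3, 102.7, and 92.1 on any array, and the synaptic vesicle gene Syt1 did not exceed 38.1. The summed signal of the 12 neuron markers was 1120.3 to 1557.3 at 2 weeks and 839.2 to 1368.4 without fracture.

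Of 7 tested astrocyte markers 2 rose and 3 fell at 3 days, 1 rose and 1 fell at 1 and at 2 weeks, and 0 were called at 4 and 6 weeks. Of all probe sets tested, 24.5% rose and 19.7% fell at 3 days, and 14.3% rose and 10.5% fell at 1 week. At 2 weeks 12.8% rose and 8.27% fell, and at 4 weeks 5.05% rose and 1.43% fell. A count of 1 or 2 of 7 is near the share at its time, and the 3 of 7 that fell at 3 days lie above it. Gja1, a gap junction protein also made by bone cells, rose 4.55-fold at 3 days (adjusted p = 0.00238), and Glul, glutamine synthetase, fell 2.39-fold (adjusted p = 0.000395). The astrocyte water channel Aqp4 stayed at or below 83.3 and the lipid-binding Fabp7 at or below 45.7. Of 6 tested Schwann cell and myelin markers 2 rose and 2 fell at 3 days, 2 rose at 1 week, 1 rose and 1 fell at 2 weeks, 1 rose at 4 weeks, and 0 were called at 6 weeks. Several were well expressed, with a median signal of 1226.9 for Pmp22, 1127.3 for Ngfr, 455.2 for Mag, and 366.5 for Cnp. Ncam1, an adhesion molecule not confined to nerve, rose 4.93-fold at 1 week (adjusted p = 0.000128). The defining factor Sox10 did not exceed 19.8 and Mbp, myelin basic protein, 91.8.

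Most of the tested genes listed under zinc and copper handling rose in the first 2 weeks. The tested genes were Slc30a4, Cp, S100b, and the LIM proteins with zinc fingers Crip2, Csrp1, and Csrp2, so that only some of them handle metals. Of all probe sets tested, 24.5% rose and 19.7% fell at 3 days, and 14.3% rose at 1 week and 12.8% at 2 weeks. The share that rose was 5.05% at 4 weeks and 3.19% at 6 weeks. Of 33 genes 11 were on the array and 6 were tested: 4 rose and 1 fell at 3 days, 5 rose at 1 week, 4 at 2 weeks, 2 at 4 weeks, and 1 at 6 weeks. The one that fell was S100b, a protein that binds calcium and zinc and is also in the list of astrocyte markers (log2 -1.26 ± 0.48, adjusted p = 0.0416); its call was lost without any of 8 single arrays (adjusted p up to 0.294). The median log2 difference of the 6 genes was 1.00 at 3 days and 0.54 at 6 weeks, against 0.01 and 0.05 over all probe sets tested, and the r of their score with Mt3 was 0.29. Csrp2, a LIM protein with zinc fingers, rose 10.2-fold at 3 days (log2 3.35 ± 0.35, adjusted p = 1.37e-05) and had a log2 difference of 0.42 ± 0.35 (adjusted p = 0.543) at 6 weeks. Its relative Csrp1 rose 3.31-fold at 3 days (adjusted p = 0.00015). Slc30a4, a zinc transporter, rose 2.53-fold at 3 days (adjusted p = 0.000622) and 2.61-fold at 2 weeks (adjusted p = 0.00131). Among members too low to be tested, the zinc transporters Slc30a1 and Slc30a2 did not exceed 115.0 and 181.6. The copper pumps Atp7a and Atp7b, also not tested, did not exceed 65.7 and 23.6.

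Of 18 tested genes of the response to low oxygen, 10 rose and 2 fell at 3 days, and 6 rose and 1 fell at 1 week. At 2 weeks 5 rose and 1 fell, and 1 rose at each of 4 and 6 weeks. Of all probe sets tested, 24.5% rose and 19.7% fell at 3 days, and 14.3% rose and 10.5% fell at 1 week. At 2 weeks 12.8% rose and 8.27% fell, and 5.05% rose at 4 weeks and 3.19% at 6 weeks. Among list members too low to be tested, Adm, Pfkfb3, Epo, and Igfbp1 did not exceed 134.6, 152.9, 21.8, and 51.9. P4ha1, a collagen prolyl hydroxylase, rose 6.82-fold at 3 days (log2 2.77 ± 0.36, adjusted p = 4.64e-05), the lysyl hydroxylase Plod2 rose 5.77-fold (adjusted p = 3.27e-05), and the glucose transporter Slc2a1 rose 3.80-fold (adjusted p = 3.9e-05). The median log2 difference of the 18 genes was 0.66 at 3 days and 0.15 at 6 weeks, against 0.01 and 0.05 over all probe sets tested. Their score had an r of -0.05 with Mt3.

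Of 29 tested genes of antioxidant defense, 6 rose and 10 fell at 3 days, 2 rose and 7 fell at both 1 and 2 weeks, 2 rose and 1 fell at 4 weeks, and 2 rose and 0 fell at 6 weeks. The 6 that rose at 3 days are near the share of 24.5% over all probe sets, of which 19.7% fell. Of all probe sets tested, 14.3% rose and 10.5% fell at 1 week, and 12.8% rose and 8.27% fell at 2 weeks. At 4 weeks 5.05% rose and 1.43% fell, and at 6 weeks 3.19% rose and 1.2% fell. The median log2 difference of the 29 genes was -0.41 at 3 days and -0.15 at 6 weeks, against 0.01 and 0.05 over all probe sets tested, and the r of their score with Mt3 was -0.32. Mgst1, a glutathione transferase of membranes, fell 5.56-fold at 2 weeks (log2 -2.48 ± 0.28, adjusted p = 9.73e-05), Gsta4, a transferase of the cytosol, fell 3.88-fold at 3 days (adjusted p = 9.06e-05), Gclm, a subunit of the enzyme that starts glutathione synthesis, fell 4.69-fold at 3 days (adjusted p = 0.00122), and catalase (Cat) fell 4.96-fold at 3 days (adjusted p = 0.00142). Gpx3 went the other way, with a rise of 3.66-fold at 2 weeks (log2 1.87 ± 0.23, adjusted p = 0.000115) and of 3.45-fold at 6 weeks (adjusted p = 0.000977). Neutrophil and erythroid markers were low over the same weeks, and their part in these falls was not tested.

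Of 10 tested genes of iron handling, 2 rose and 4 fell at 3 days, 1 rose and 3 fell at 1 and at 2 weeks, 0 rose and 1 fell at 4 weeks, and 0 were called at 6 weeks. The rises did not exceed the background share, which was 24.5% at 3 days, 14.3% at 1 week, and 12.8% at 2 weeks. The falls compare with a background of 19.7% at 3 days, 10.5% at 1 week, 8.27% at 2 weeks, and 1.43% at 4 weeks. The median log2 difference of the list was -0.13 at 3 days and -0.01 at 6 weeks. Lcn2, an iron-binding protein of neutrophils, fell 7.78-fold at 3 days (log2 -2.96 ± 0.54, adjusted p = 0.000535). Haptoglobin (Hp) fell 5.40-fold (adjusted p = 0.000159) and the transferrin receptor Tfrc fell 4.71-fold at 3 days (adjusted p = 0.000288), whereas Aco1, the aconitase that also binds iron response elements, rose 2.33-fold (adjusted p = 0.00105). The score of the list had an r of -0.03 with Mt3.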

How the data were processed

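The authors hybridized pooled RNA of 2 rats to each Affymetrix rat oligonucleotide array, and the deposited values are intensities, namely Microarray Suite 5.0 signals that the authors scaled to an average of 500 per array. The series used is 1 of several of the study; the others were not used here, nor were detection calls. Signals below 100 were set to 100 and log2 was taken. After 59 controls were left out, a probe set was tested if its signal reached 200 on 3 arrays (4669 of 8799). Between 37.2% and 43.3% of signals of an array were below the floor. The number of arrays limits the precision. Symbols came from the platform annotation, updated through RefSeq (GRCr8): 7018 probe sets had 1 symbol, 308 several, and 1473 none.

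Limma 3.58.1 (two-sided, with a trend in eBayes, under R 4.3.3) was fitted to all probe sets tested, and p was adjusted by Benjamini and Hochberg with a threshold of 0.05. Times were compared over 18 arrays with time and age as terms, ages over the 15 arrays after fracture, and periods over the 12 arrays at 1, 2, 4, and 6 weeks. P-values measure the spread between arrays of other ages or times, not between rats. The age term makes the 6 arrays of an age a block because the study ran the same ages at each time.

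The gene and the lists were chosen with earlier results of these data known. The rule for named genes took Mt3, the other metallothionein probe sets, for each list at most 4 called members by size of change, and the 10 genes most and 3 least like Mt3; for some lists only part of these are named. The scripts were tested on simulated data. Alternatives were other floors, filters, scalings, and tests, and each array left out in turn.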

Additional observations from a re-analysis of the deposited data

Results flagged for a closer look

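The Mt3 signal of adult rats at 3 days after fracture was 78.5, far below the 4 other arrays of adult rats after fracture, which lay between 2282.6 and 3423.6. On the log2 scale, with this signal set to the floor of 100, the gap was 0.885 of the whole range of the 5 arrays, above the critical value of 0.71 for 5. On the signals as deposited it was 0.659, below that value. These arrays are different times of healing and not repeats of 1 condition, and chance alone sets apart about 1 in 20 such groups.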

How the results depend on the processing

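All age comparisons of Mt3 stayed on the same side of the threshold under every alternative that could be run. With arrays left out in turn, the log2 difference of Mt3 against no fracture was -0.81 to 0.81 at 3 days, 3.01 to 3.68 at 1 week, 3.68 to 4.27 at 2 weeks, 3.36 to 4.01 at 4 weeks, and 3.19 to 4.52 at 6 weeks. Over the other alternatives it was lowest with a floor of 200 from 1 week on (2.92 at 1 week, 3.51 at 2 weeks, 3.25 at 4 weeks, 3.26 at 6 weeks) and highest with a floor of 20 (3.62, 4.22, 3.95, and 3.97). Older minus young ranged from -1.21 to -0.06 with arrays left out, adult minus young from -0.85 to 0.30, and the change between periods from 0.96 to 2.28. The departure from no fracture was not run with an array of rats without fracture left out.

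Without the age term, that is without the replicate block, the differences of Mt3 could not change, since each time held 1 array of each age. They stayed at 0.19 at 3 days, 3.34 at 1 week, 3.94 at 2 weeks, 3.67 at 4 weeks, and 3.69 at 6 weeks. The probe sets called without that term were 190 at 4 weeks and 104 at 6 weeks, against 303 and 205 with it. With only the 6 arrays of the times compared, the calls were 1263 at 3 days, 657 at 1 week, 404 at 2 weeks, and 0 at 4 and 6 weeks. An ordinary t-test on floored log2 signals set the 3 arrays of a time against the 3 without fracture. After Benjamini-Hochberg it gave 848 at 3 days, 1 at 1 week, 18 at 2 weeks, and 0 at 4 and 6 weeks. The study also used t-tests, but with more arrays per group, so these counts do not bear on its tests. By limma without a filter there were 112 at 4 weeks and 60 at 6 weeks. With arrays left out, calls ranged from 587 to 1021 at 2 weeks, 89 to 409 at 4 weeks, and 24 to 287 at 6 weeks; the lowest came without the array of older rats at that time. The probe sets picked by the rule for named genes, other than that of Mt3, were compared at each time after fracture, whether called or not. By alternative 512 of these results were weaker, 95 stronger, and 8888 the same, and 0 reversed. Results that were not called and stayed so count among the same.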

Other observations

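The genes with a time course most opposed to Mt3 had small differences against no fracture. Over the 18 arrays Pearson's r with Mt3 was -0.84 for Sfxn1, a mitochondrial serine transporter, -0.83 for Hsph1, a heat shock protein, and -0.76 for Slc7a5, a transporter of large neutral amino acids. Against no fracture at 2 weeks the log2 difference was -0.76 ± 0.25 for Sfxn1, -0.45 ± 0.22 for Hsph1, and -0.66 ± 0.32 for Slc7a5. These genes were chosen for this opposition on the same arrays, so the values are given without a test.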
